A study of Mus musculus with 81 samples.

Results

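The Ly6 genes encode small surface proteins that are tethered to the outer face of the plasma membrane by a lipid (GPI) anchor. The 5 genes described here, Ly6a, Ly6c1, Ly6c2, Ly6e and Ly6i, were chosen by symbol from the 18 genes in the annotation whose symbol begins with Ly6. They were chosen after Ly6a had been seen among the largest rises in bone marrow-derived macrophages (BMDMs) of a conditional knockout (cKO) of histone H3.3. Differences between the H3.3 cKO and wild type (WT) are therefore given below as a description, without a test. In mouse haematopoietic cells Ly6a, known as Sca-1, marks stem and early progenitor cells, and Ly6c2 encodes Ly-6C of inflammatory monocytes. Ly6c1 is a near copy of Ly6c2 that is known from endothelial cells and lymphocytes, Ly6i is a relative of Ly6a, and Ly6e is a broadly expressed member that is known for its part in virus entry. Several members are interferon-stimulated genes, a class that is switched on through the type I interferon receptor (IFNAR1) or the IFNγ receptor.

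The series holds 81 RNA-seq libraries, of which 79 were placed in 27 groups by their labels. WT was H3f3a fl/fl H3f3b fl/fl without cre, and cKO carried the same floxed alleles of both H3.3 genes with LysM cre/cre, a cre inserted into the macrophage gene Lyz2, so that deletion is driven only in myeloid cells and no intact copy of Lyz2 is left. The mice were young adults of both sexes on a C57BL/6 background, and all BMDMs were grown from bone marrow in L929-conditioned medium. The groups were cultures of WT and cKO on days 3, 5 and 7 (3 libraries each), day 8 BMDMs of both genotypes left untreated or given IFNγ for 12 h (3 WT and 2 cKO libraries each), peritoneal macrophages (3 each), and BMDMs grown with no antibody, an isotype control antibody or an IFNAR1 blocking antibody from day 0 and lysed on day 6 (3 each). A further experiment held 3 sets of WT and cKO BMDMs and the double knockouts H3.3cKO:StingKO, H3.3cKO:MavsKO and H3.3cKO:Irf7KO (3 libraries in each group). The double knockouts carry every cKO allele plus a germline knockout of Sting, Mavs or Irf7, which code for a DNA-sensing adaptor, an RNA-sensing adaptor and an interferon transcription factor, and these knockout stocks were partly of 129 origin. The labels call the libraries biological replicates but do not say which mouse gave which library, so p-values measure the spread between these libraries.

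Counted reads per library ranged from 3614967 to 45581528. H3f3a in the cKO was at 6.94 to 27.3% of the WT mean over the 12 comparisons and Lyz2 at no more than 0.271%. Whole-gene counts of H3f3b were less uniform, at 11.5 to 13.3% of WT in the antibody experiment and at 75.1 to 89.5% elsewhere. Sting (listed as Tmem173) was at 5.52 ± 0.549 CPM (SD, n = 3) in H3.3cKO:StingKO against means of 72 to 88.1 CPM in the cKO sets. Irf7 was at 106 ± 7.13 CPM (SD, n = 3) in H3.3cKO:Irf7KO, below the means of 310 to 388 CPM in the cKO sets and within the range of the WT sets (means of 60.6 to 132 CPM), and Mavs at 37.5 ± 0.353 CPM (SD, n = 3) in H3.3cKO:MavsKO against 38.9 to 49.9 CPM in the cKO sets. These are whole-gene counts, which do not show which exons are missing. For H3f3b the paper reports that deletion varied, complete in some cKO samples and partial in others. The degree of H3.3 loss may therefore differ between experiments. All 10 macrophage markers were detected in each group, as were all 6 peritoneal macrophage markers in the peritoneal libraries. CPM is the read count relative to the total of its library, scaled between libraries of 1 experiment by TMM normalisation.

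All 5 members lie in 1 cluster on chromosome 15 (GRCm38, the assembly also called mm10). Ly6e is at chr15:74955051-74959905 on the plus strand, and the other 4 follow on the minus strand, Ly6i at chr15:74979534-74983430, Ly6a at chr15:74994877-74998031, Ly6c1 at chr15:75044018-75048830 and Ly6c2 at chr15:75108158-75111970. No annotated gene overlaps any of them. How alike their messages are sets how cleanly reads can be assigned to each gene, so the first 120 coding bases of the 2 closest pairs are printed here from GENCODE vM21, with capitals at the bases that differ within a pair. On the genome these stretches run from the start codon across an intron, at chr15:75047420-75048511 for Ly6c1, chr15:75110578-75111667 for Ly6c2, chr15:74996519-74997604 for Ly6a and chr15:74981953-74983059 for Ly6i.
Ly6c1: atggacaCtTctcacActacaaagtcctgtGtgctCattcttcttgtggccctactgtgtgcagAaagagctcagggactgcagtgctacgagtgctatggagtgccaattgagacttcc
Ly6c2: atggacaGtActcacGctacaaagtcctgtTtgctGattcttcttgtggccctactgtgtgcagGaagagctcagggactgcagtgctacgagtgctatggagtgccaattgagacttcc
Ly6a: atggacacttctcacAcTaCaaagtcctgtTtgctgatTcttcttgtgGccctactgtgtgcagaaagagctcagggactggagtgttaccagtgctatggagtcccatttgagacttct
Ly6i: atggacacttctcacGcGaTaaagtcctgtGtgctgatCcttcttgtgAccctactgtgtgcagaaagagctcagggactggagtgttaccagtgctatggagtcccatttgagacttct

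Over their 393 coding bases Ly6c1 and Ly6c2 differed at 9 positions (97.71% identical), 6 of them in the stretch shown. Ly6a and Ly6i differed at 55 of 402 positions (86.32% identical), also with 6 in the stretch shown. Ly6e stood apart, at 49.65 to 52.33% identity to the other 4. Of all 50-base words in their annotated transcripts, 32.766% of those of Ly6c1, 18.967% of those of Ly6a, 14.453% of those of Ly6c2 and 4.758% of those of Ly6i also occurred in the transcript of another gene, and none of those of Ly6e did. STAR leaves reads that match several places out of its gene counts, so the counts of Ly6c1, Ly6c2, Ly6a and Ly6i come from the parts of each transcript that are its own, and their assignment is less certain than that of Ly6e.

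Per kilobase of exon, Ly6e had the highest level of the 5 in 23 of 27 groups and Ly6a in the other 4. Ly6a came next after Ly6e in 21 groups, Ly6c2 after these in 20, and Ly6c1 was last in 23. On this scale Ly6e was at 40.7 CPM per kilobase in WT cells on day 3 and at 499 in cKO BMDMs given IFNγ, whereas Ly6c1 did not exceed 0.908 CPM per kilobase in any group. Ly6i and Ly6c1 therefore rest on few reads. No library held more than 50 reads of Ly6i or 20 of Ly6c1.

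The time course asks how the genes behave as bone marrow cells become macrophages. In WT cells Ly6a was low on days 3 and 5, at 1.70, 5.92 and 6.29 CPM on day 3 and 5.07, 6.35 and 5.99 CPM on day 5. On day 7 it was at 45, 16 and 10.7 CPM, all above day 5. In cKO cells Ly6a was already at 291, 243 and 330 CPM on day 3, at 614, 164 and 198 CPM on day 5 and at 399, 275 and 314 CPM on day 7. The cKO libraries lay above every WT library on each day. The log2 fold change of cKO against WT was 5.94 ± 0.647 (SE) on day 3, 5.81 ± 0.639 on day 5 and 3.78 ± 0.573 on day 7, with ranks 58, 25 and 45 from the highest among 15955 genes. Without replicate 1 of the cKO, which was the highest library on day 5, the day 5 value was 4.97, and without WT replicate 1, the highest WT library on day 7, the day 7 value was 4.64.

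Ly6c2 fell between days 3 and 5 in WT. In WT it was at 44.9, 66.8 and 83.7 CPM on day 3, at 14.7, 12.8 and 13.9 CPM on day 5 and at 2.66, 1.82 and 3.15 CPM on day 7. The days did not overlap, and day 5 was below day 3 by a log2 fold change of -2.24 ± 0.508 (edgeR's quasi-likelihood test with Benjamini-Hochberg adjustment, adjusted p = 0.0311). In the cKO Ly6c2 was at 458, 274 and 420 CPM on day 3, 260, 53.8 and 95.1 CPM on day 5 and 59.3, 15.6 and 32.7 CPM on day 7. Each cKO group lay above the WT group of its day, and all 3 cKO libraries on day 7 were still above the WT libraries of day 5. The log2 fold change of cKO against WT was 2.56 ± 0.503 on day 3, 3.3 ± 0.526 on day 5 and 3.80 ± 0.572 on day 7. Without cKO replicate 1, the highest library on day 5, the day 5 value was 2.44.

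**Figure D1:**
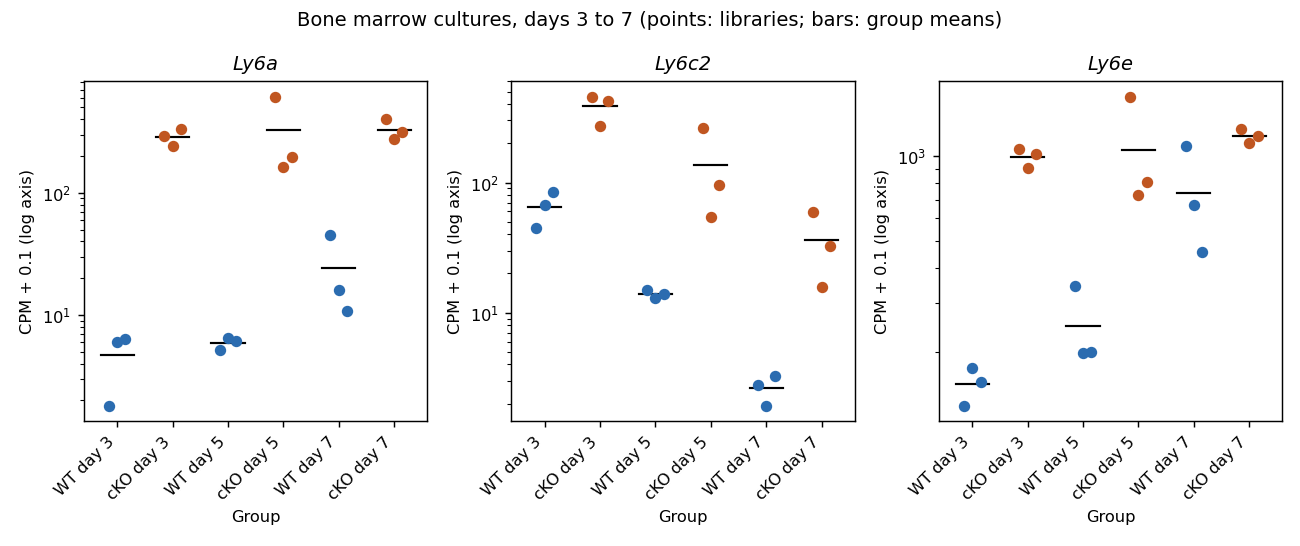
CPM + 0.1 on a log axis for Ly6a, Ly6c2 and Ly6e in WT (blue) and cKO (orange) bone marrow cultures on days 3, 5 and 7, with 1 point for each library and a bar at the mean of its group. Group means of Ly6a in the cKO are 288 to 329 CPM, those of Ly6c2 in WT are 65.1, 13.8 and 2.54 CPM on the 3 days, and that of Ly6e in WT is 154 CPM on day 3 and 738 CPM on day 7.

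Per kilobase Ly6e was the most abundant member on each day in both genotypes. In WT it was at 129, 176 and 157 CPM on day 3, at 344, 199 and 201 CPM on day 5 and at 1090, 670 and 457 CPM on day 7. In the cKO it was at 1060, 905 and 1020 CPM on day 3, 1630, 729 and 807 CPM on day 5 and 1250, 1110 and 1180 CPM on day 7. The cKO libraries lay above the WT ones on each day, and the log2 fold change of cKO against WT was 2.69 ± 0.338 on day 3, 2.09 ± 0.330 on day 5 and 0.68 ± 0.318 on day 7. Ly6i had 1 to 7 reads in WT and 31 to 50 reads in cKO libraries on day 3 and a log2 fold change of 3.50 ± 0.726 (4.51 without WT replicate 3), and Ly6c1 had 2 to 4 reads in WT and 11 to 20 in cKO (2.55 ± 0.587). On day 5 no WT library held a read of Ly6c1 and the cKO libraries held 21 in all, which puts the cKO at least 7.16-fold higher against a floor of 3 reads over the WT group.

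Of the steps between days within a genotype, few members passed the test. The test took the libraries as unpaired, and the labels do not say whether the same marrow gave the libraries of the same number on each day. A fit with a term for the replicate number, given at the end, called further members. The WT and cKO libraries in these steps, and in the later tests within a genotype, also form the cKO against WT comparisons, the kind that chose the members, so these tests are not free of that choice. Between days 3 and 5 in WT 1 of 5 members was called, Ly6c2 above, where 2.64% of all genes were. This call was lost on leaving out any 1 of the 6 libraries except WT day 3 replicate 1, with adjusted p from 0.0617 to 0.134. Between days 5 and 7 in WT edgeR called 0 of 5 members and 0.238% of all genes, with 4 of the 5 at an unadjusted p under 0.05. DESeq2 called 3 members, Ly6a, Ly6e and Ly6c2, and 4.83% of all genes. In edgeR these 3 had log2 fold changes of 2.04 ± 0.561 for Ly6a (edgeR quasi-likelihood, adjusted p = 0.104), 1.57 ± 0.325 for Ly6e (adjusted p = 0.0573) and -2.42 ± 0.56 for Ly6c2 (adjusted p = 0.0778). Without WT day 5 replicate 1 edgeR called Ly6e (1.87, adjusted p = 0.0147) and Ly6c2 (-2.38, adjusted p = 0.049), and without WT day 7 replicate 3 it called Ly6e (1.81, adjusted p = 0.017) and Ly6a (2.38, adjusted p = 0.0406). In the cKO edgeR called 0 of 5 between days 3 and 5, with 3.59% of all genes called and 3 members at an unadjusted p under 0.05. DESeq2 called 1 member and 6.86% of all genes. Without cKO day 5 replicate 1 edgeR called Ly6c2 (-2.35, adjusted p = 0.00889), Ly6c1 (-2.16, adjusted p = 0.0294) and Ly6i (-2.36, adjusted p = 0.0474). Between days 5 and 7 edgeR again called 0 of 5, with 0.0564% of all genes called and 1 member at an unadjusted p under 0.05. DESeq2 called 1 member and 0.615% of all genes. The shares of all genes at an unadjusted p under 0.05, and those called without 1 library, are not given here. Ly6a itself differed between days in the cKO by 0.17 ± 0.509 and 0.02 ± 0.509 on the log2 scale.

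The cultures also changed in other markers over these days. The summed level of 8 progenitor markers was 482 to 811 CPM in WT on day 3 and 4.55 to 10.7 CPM on day 7, and in cKO 881 to 1270 CPM and 34.7 to 81.7 CPM. That of 8 neutrophil markers was 1570 to 2930 CPM in WT on day 3 and 106 to 177 CPM on day 7, and in cKO 2420 to 3700 CPM and 120 to 306 CPM. The summed level of 8 monocyte markers went from 411 to 762 CPM on day 3 to 126 to 394 CPM on day 7 in WT, and from 808 to 1090 CPM to 214 to 302 CPM in cKO. The sum of 40 interferon-stimulated genes was 384 to 539 CPM in WT and 4740 to 6290 CPM in cKO on day 3, and 1970 to 6410 CPM and 4980 to 7130 CPM on day 7. The part of these lists in the members' values was not tested, and in bulk libraries fewer cells of a type and less RNA per cell cannot be told apart. Of 18 other genes listed for the Ly6 cluster on chromosome 15, 13 were in the annotation, and 3 of these had enough reads for a test in the time course. Ly6d, a marker of early lymphoid cells, was lower on day 5 than on day 3 in WT (log2 fold change -3.54 ± 0.581, edgeR adjusted p = 0.00711) and in cKO (-5.45 ± 0.523, adjusted p = 0.000267). Lynx1, known as a modulator of acetylcholine receptors, was lower on day 5 than on day 3 within the cKO (-2.09 ± 0.366, edgeR adjusted p = 0.00871). Ly6g, the neutrophil antigen, did not pass the test in either genotype, at -2.42 ± 0.649 in WT (adjusted p = 0.059) and -1.94 ± 0.610 in cKO (adjusted p = 0.0905).

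Day 8 BMDMs were compared with and without IFNγ. The untreated libraries of both genotypes are also those of a cKO against WT comparison, the kind that chose the members, so the IFNγ tests are not independent of the choice. A pair of cKO libraries whose title and library name disagree on IFNγ stayed out. Ly6a in untreated WT was at 29.2, 19 and 13.5 CPM and after IFNγ at 707, 710 and 769 CPM. The groups were far apart, and the log2 fold change was 5.15 ± 0.377 (edgeR quasi-likelihood, adjusted p = 4.66e-06), a rank of 109 from the highest among 13075 genes. In the cKO Ly6a went from 103 and 149 CPM to 605 and 1300 CPM, again without overlap (2.92 ± 0.413, edgeR adjusted p = 0.000527). The cKO library at 605 CPM was the shallowest of the series, with 3614967 counted reads, and without it the value was 3.39 (edgeR adjusted p = 1.05e-05). With the 2 libraries of conflicting labels placed by their library names the cKO value was 3.07 (edgeR adjusted p = 1.08e-05). Placed by their titles, both calls ended, at 0.45 in the cKO (edgeR adjusted p = 0.995) and 5.15 in WT (adjusted p = 0.0776). Ly6a was at 123 CPM in the library named without IFNγ and 1240 CPM in the one named with it, within the cKO ranges of those library names and outside those of the titles.

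Ly6e, the other abundant member, rose from 320, 252 and 233 CPM to 908, 891 and 879 CPM in WT, with a log2 fold change of 1.74 ± 0.188 (edgeR adjusted p = 6.18e-05). In the cKO it rose from 608 and 663 CPM to 2260 and 1520 CPM (1.57 ± 0.229, adjusted p = 0.000634), which put all cKO libraries given IFNγ above the WT ones. The scarce members also rose. Ly6i in WT had 0, 1 and 3 reads before and 25, 43 and 40 reads after IFNγ, at 2.68, 6.40 and 4.82 CPM (log2 fold change 4.97 ± 0.648, edgeR adjusted p = 0.000204). In the cKO Ly6i had 2 reads in each untreated library and 3 and 39 after IFNγ (4.27 ± 0.779, adjusted p = 0.00227), and without the deeper library, IFNγ replicate 2, it was no longer called (3.22, adjusted p = 0.0806).

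Ly6c1 had 0, 1 and 1 reads in untreated WT and 13, 10 and 14 after IFNγ (log2 fold change 4.25 ± 0.616, edgeR adjusted p = 0.000403). In the cKO it had 4 reads in each untreated library and 1 and 12 after IFNγ, and it did not pass the test (1.72 ± 0.627, adjusted p = 0.0576). Without cKO IFNγ replicate 1 it passed (1.98, adjusted p = 0.0334). In all 4 of 4 tested members were called in WT, where IFNγ called 40.1% of all genes, and 3 of 4 in the cKO, where it called 33.6%. With the conflicting libraries placed by title none of these calls held, with WT adjusted p of 0.0788 for Ly6e, 0.0813 for Ly6i and 0.0788 for Ly6c1, and cKO values of 0.64 for Ly6e and 0.57 for Ly6i (edgeR adjusted p = 0.995 for both). Placed by library name, Ly6c1 was called in the cKO as well (2.35, edgeR adjusted p = 0.0111). Ly6c2 fell under the filter on low counts. No untreated WT library held a read of Ly6c2, and after IFNγ the WT libraries held 16 in all, at least 6.34-fold higher than the floor of 3 reads over the untreated group, so the monocyte antigen stayed at a mean of 0.635 CPM where Ly6a reached 729.

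**Figure D2:**
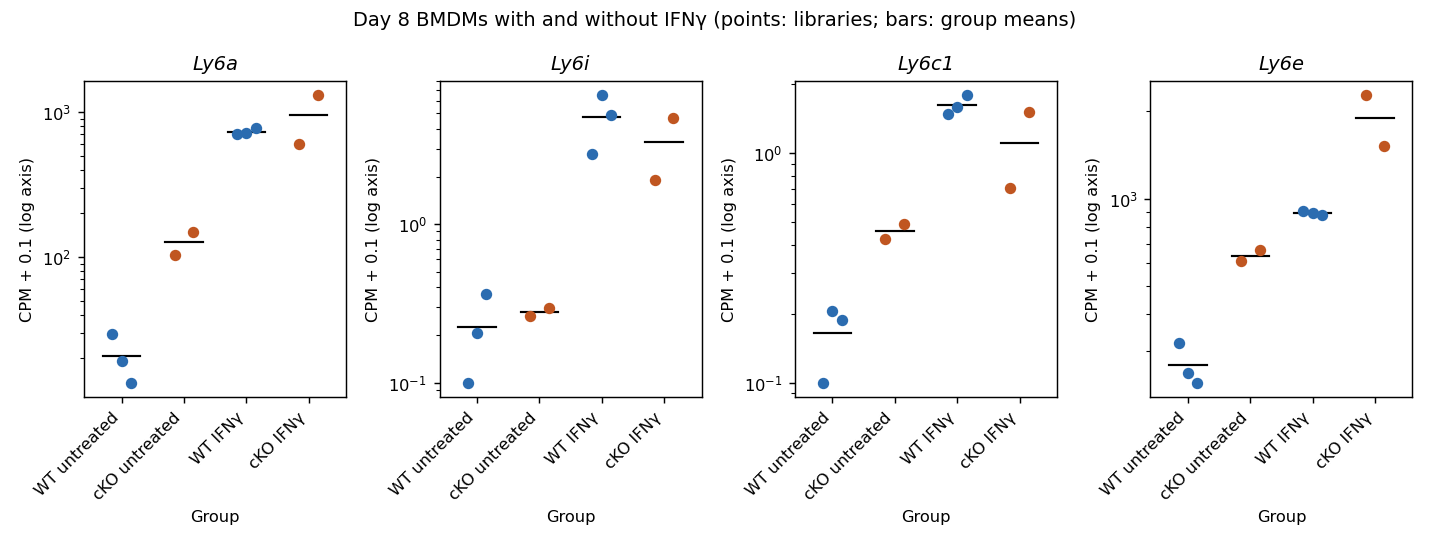
CPM + 0.1 on a log axis for Ly6a, Ly6i, Ly6c1 and Ly6e in day 8 BMDMs of WT (blue) and cKO (orange), untreated or after IFNγ for 12 h, with 1 point for each library and a bar at the group mean. Ly6a is apart between genotypes when untreated (means of 20.6 and 126 CPM) and overlaps after IFNγ (729 and 953 CPM).

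Without IFNγ the cKO libraries lay above the WT for Ly6a (log2 fold change 2.62 ± 0.359), Ly6e (1.24 ± 0.202) and Ly6c1 (2.19 ± 0.785) and overlapped them for Ly6i (0.39 ± 1.07). After IFNγ Ly6a overlapped between genotypes (0.39 ± 0.347), as did Ly6i (-0.31 ± 0.521) and Ly6c1 (-0.33 ± 0.518), whereas Ly6e stayed apart (1.08 ± 0.202). Without cKO IFNγ replicate 2 the Ly6a value was -0.30. Ly6c2, under the filter, had 1 read in all in the untreated cKO libraries and none in the untreated WT. After IFNγ its means were 0.596 CPM in cKO and 0.635 CPM in WT. The higher Ly6c2 of the cKO on day 7 (means of 35.9 and 2.54 CPM) was thus not seen on day 8, where its reads were few. The smaller response of Ly6a in the cKO, a difference of -2.23 ± 0.507 between the responses on the log2 scale, did not pass edgeR's quasi-likelihood interaction test over all genes (unadjusted p = 0.00124, adjusted p = 0.315). That test called 0 of 13075 genes, 1105 of which had an unadjusted p under 0.05. DESeq2 called 83 genes, Ly6a among them (-2.18, adjusted p = 0.01), and edgeR did so without cKO IFNγ replicate 2 (-2.93, adjusted p = 0.000901). For Ly6e the difference between the responses was -0.17 ± 0.289 (edgeR adjusted p = 0.879). The interferon list was called as higher for 39 of 40 genes in WT (median log2 fold change 3.45, against -0.01 for all genes) and 38 of 40 in cKO (median 3.02 against -0.02), and 10 of the 40 in WT and 21 in cKO rose more than Ly6a. The summed level of 10 stromal and endothelial markers also moved with IFNγ, from 55.8 to 133 CPM to 178 to 332 CPM in WT and from 109 to 163 CPM to 688 to 764 CPM in cKO, with Kdr the highest, and their part in the members' values was not tested.

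Peritoneal macrophages tell whether the difference is also seen in cells taken directly from the animal. There Ly6a was scarce in both genotypes, at 1.69, 0.923 and 1.37 CPM in WT and 6.04, 4.59 and 4.55 CPM in cKO. The groups did not overlap, and the log2 fold change was 1.95 ± 0.328, a rank of 77 from the highest among 12361 genes. Ly6c2 overlapped, at 3.48, 0.568 and 0.410 CPM in WT and 6.76, 3.17 and 2.60 CPM in cKO (1.67 ± 0.765, and 3.14 without WT replicate 1). The labels do not state a pairing of these samples. Matched by replicate number, Ly6c2 was higher in the cKO in each of the 3 pairs (1.88 with the replicate block), but that these numbers mark true pairs is not established. Ly6e was abundant, at 1240, 954 and 857 CPM in WT and 1290, 1330 and 2220 CPM in cKO (0.67 ± 0.248). Ly6i had 1 to 7 reads in WT and 3 to 12 in cKO, and Ly6c1 at most 12, so neither was tested. T cell markers, a class that also uses Ly6a and Ly6c, summed to 5.11 to 22.6 CPM in WT and 14.8 to 51.5 CPM in cKO, and their part was not tested.

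The antibody experiment asks whether the levels depend on signalling through IFNAR1. With the control antibody Ly6a in the cKO was at 74.6, 63.1 and 37.4 CPM, and with the IFNAR1 antibody at 4.25, 5.11 and 1.72 CPM. The groups lay far apart, with a log2 fold change of -3.96 ± 0.841 (edgeR quasi-likelihood, adjusted p = 0.0202), a rank of 22 from the lowest among 17191 genes. Ly6c2 in the same libraries went from 9.52, 6.69 and 8.19 CPM to 0.127, 0.786 and 0.191 CPM (-4.47 ± 0.607, adjusted p = 0.00298), rank 8 from the lowest. Ly6e, in contrast, was at 448, 443 and 325 CPM with the control and 443, 197 and 186 CPM with the IFNAR1 antibody, which overlapped and did not pass the test (-0.56 ± 0.316, adjusted p = 0.348). In the cKO 2 of 3 tested members were called, where 4.03% of all genes were. The call for Ly6a was lost without cKO control replicate 2 (-3.91, adjusted p = 0.0702), cKO control replicate 3 (-4.20, adjusted p = 0.0587) or cKO IFNAR1 replicate 1 (-4.07, adjusted p = 0.0689), while Ly6c2 was called with any 1 of the 6 libraries left out, with adjusted p from 0.00659 to 0.0185.

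In WT the same antibody took Ly6a from 6.30, 3.23 and 2.93 CPM to 0.346, 0.0627 and 3.19 CPM. Replicate 3 overlapped the controls, and the value of -1.76 ± 0.873 did not pass the test (edgeR adjusted p = 0.172). Without WT IFNAR1 replicate 3 it was -4.12 (adjusted p = 0.00807). Ly6c2 in WT went from 0.560, 0.510 and 0.458 CPM to 0.115, 0 and 0.139 CPM, that is from 22 reads in all to 6 (-2.38 ± 0.766, adjusted p = 0.0576), and without WT IFNAR1 replicate 3 it passed (-2.75, adjusted p = 0.0313). Ly6e was at 179, 164 and 138 CPM with the control and 171, 181 and 125 CPM with the IFNAR1 antibody (-0.01 ± 0.316, adjusted p = 0.984). In WT edgeR called 0 of 3 members, where 9.89% of all genes were called, with 1 member at an unadjusted p under 0.05 and 1 called by DESeq2. The difference of the antibody effect between genotypes did not pass for Ly6a (-2.21 ± 1.18 on the log2 scale, edgeR interaction test, adjusted p = 0.919, and 0.16 without WT IFNAR1 replicate 3) or Ly6c2 (-2.09 ± 1.11, adjusted p = 0.914), in a test that called 0 of 17191 genes, with 975 at an unadjusted p under 0.05 and 50 called by DESeq2.

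**Figure D3:**
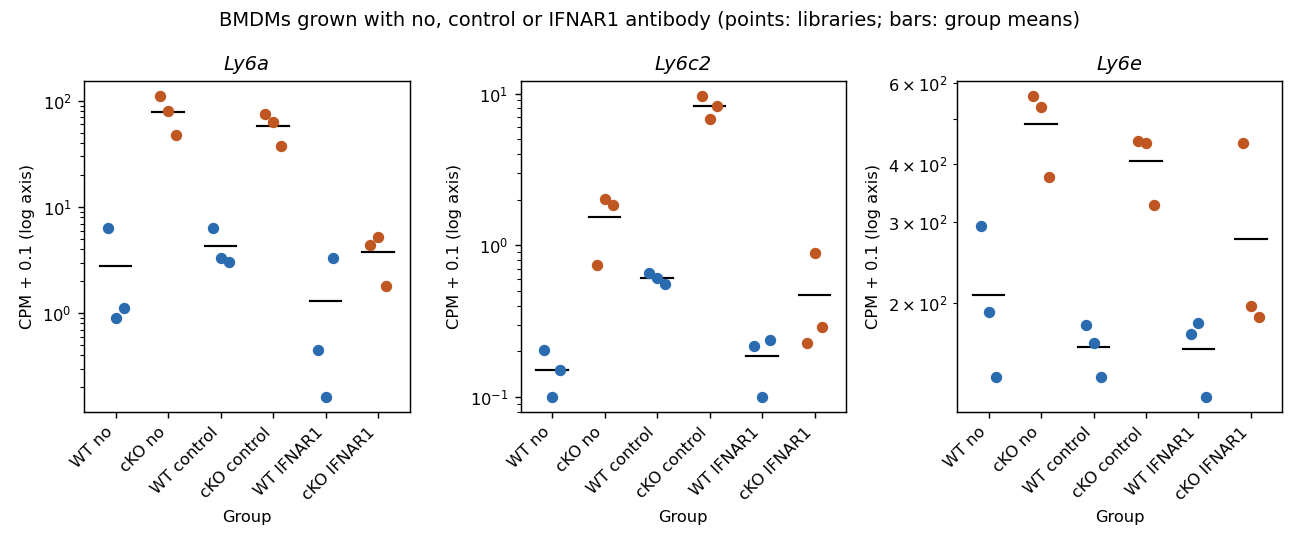
CPM + 0.1 on a log axis for Ly6a, Ly6c2 and Ly6e in WT (blue) and cKO (orange) BMDMs grown with no antibody, the control antibody or the IFNAR1 antibody, with 1 point for each library and a bar at the group mean. With the IFNAR1 antibody the cKO mean of Ly6a is 3.69 CPM against 58.4 with the control, and that of Ly6c2 is 0.368 against 8.13.

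Set beside the 40 interferon-stimulated genes, Ly6a and Ly6c2 had the lowest values in the cKO. With the IFNAR1 antibody in the cKO the list had a median log2 fold change of -0.71, against 0.01 for all genes, with 10 genes called lower and 1 higher, and all 40 had a less negative value than Ly6a and than Ly6c2. Ly6e, the other member tested, fell less than the list median. The cKO control libraries also belong to a cKO against WT comparison, the kind that chose the members. How far the members fall beside the list is therefore not free of that choice. The sum of the list was 1260 to 1970 CPM with the control and 746 to 1110 CPM with the IFNAR1 antibody. In WT 4 genes of the list were called lower and 1 higher (median -0.34 against 0.01). Stromal and endothelial markers summed to 225 to 337 CPM in the cKO with the control antibody and 80.1 to 127 CPM with the IFNAR1 antibody, with Lum at 0 in both, and their part in the members' values was not tested.

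Ly6c2 also differed between the control antibody and no antibody. In the cKO it was at 0.640, 1.92 and 1.75 CPM without antibody and 9.52, 6.69 and 8.19 CPM with the control, apart from each other (log2 fold change 2.53 ± 0.518, edgeR adjusted p = 0.0296). In WT it went from 0.103, 0 and 0.0506 CPM, 3 reads in all, to 0.560, 0.510 and 0.458 CPM (3.18 ± 0.855, adjusted p = 0.0332). This was 1 of 3 tested members in each genotype, where 1.46% of all genes were called in cKO and 8.9% in WT. Both calls depended on single libraries. In the cKO the call held without control replicate 1 (adjusted p = 0.0496) and was lost without any 1 of the other 5 libraries (0.0627 to 0.171), and in WT it held without the no antibody replicate 1 (adjusted p = 0.0301) and was lost without any 1 of the others (0.0815 to 0.125). Ly6a did not pass in either genotype, with 111, 79.5 and 47.3 CPM in the cKO without antibody (-0.44 ± 0.721, adjusted p = 0.944) and 6.25, 0.8 and 1.01 CPM in WT (0.64 ± 0.820, adjusted p = 0.617). In the cKO stromal and endothelial markers summed to 102 to 155 CPM without antibody and 225 to 337 CPM with the control, and neutrophil markers to 74.0 to 96.6 CPM and 104 to 213 CPM, and whether either has a part in the rise of Ly6c2 was not tested.

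Between genotypes the log2 fold change of Ly6a was 4.89 ± 0.868 without antibody, 3.81 ± 0.831 with the control and 1.60 ± 0.881 with the IFNAR1 antibody, where the libraries of the 2 genotypes overlapped. For Ly6c2 the same values were 4.63 ± 0.773, 3.98 ± 0.577 and 1.89 ± 0.815, with overlap again under the IFNAR1 antibody. They were 5.47 without antibody when WT replicate 1 was left out and 0.69 with the IFNAR1 antibody when cKO replicate 2 was. For Ly6e they were 1.23 ± 0.320, 1.34 ± 0.321 and 0.79 ± 0.317. The value of Ly6a without antibody was 6.44 when WT replicate 1 was left out, and with the IFNAR1 antibody 3.97 without WT replicate 3. Ly6i and Ly6c1 were not tested in these libraries, which held at most 9 reads of Ly6i and 4 of Ly6c1.

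**Figure D4:**
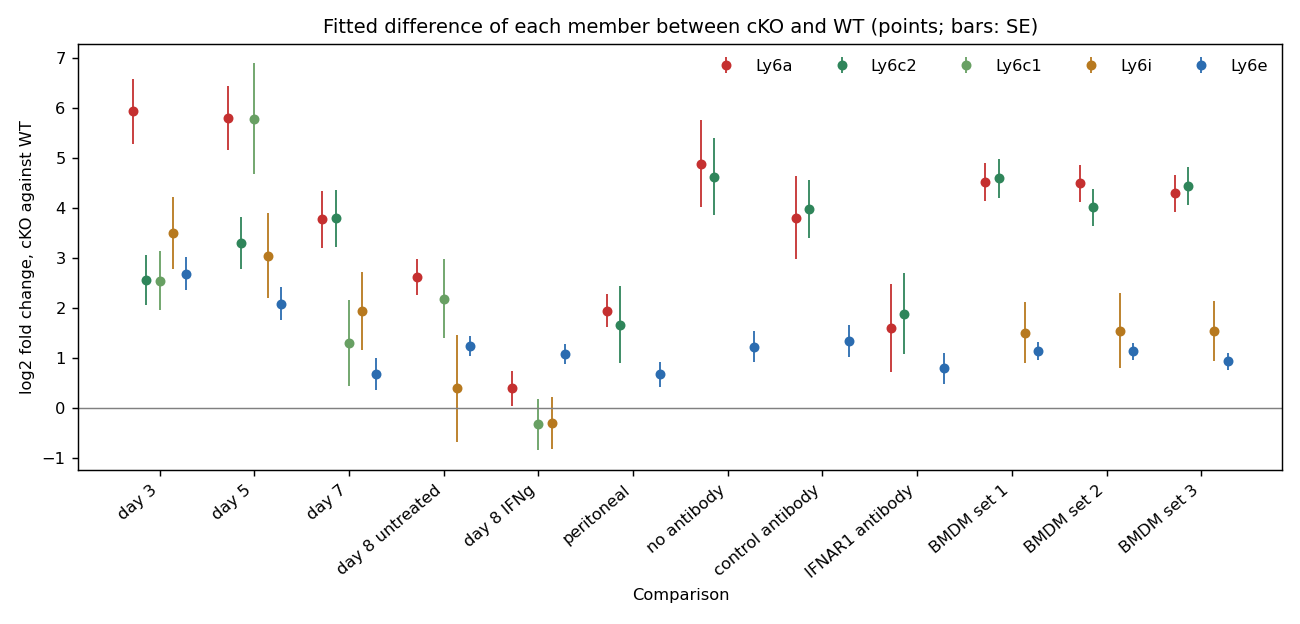
Log2 fold change of each member between cKO and WT (points, with bars of 1 SE) in the 12 comparisons, for members with enough reads. Ly6a lies at 5.94 on day 3 and at 0.39 after IFNγ, and Ly6e between 0.67 and 2.69 in all 12.

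The last experiment asks whether Sting, Mavs or Irf7 is needed for the difference. Ly6a in the 9 WT libraries of the 3 sets was at 5.25 to 24.1 CPM with a mean of 16, and in the 9 cKO libraries at 287 to 430 CPM with a mean of 349. The log2 fold changes of the sets were 4.52 ± 0.377, 4.5 ± 0.373 and 4.30 ± 0.372. In H3.3cKO:StingKO Ly6a was at 378, 455 and 461 CPM, in H3.3cKO:MavsKO at 385, 350 and 321 CPM and in H3.3cKO:Irf7KO at 114, 240 and 258 CPM. All 9 double knockout libraries lay above every WT library. The labels do not tie a set to a double knockout, so each was compared with the mean of the 3 sets, and differences between the sets enter these values. In the series H3.3cKO:StingKO is listed after set 1, H3.3cKO:MavsKO after set 2 and H3.3cKO:Irf7KO after set 3. Among the single cKO sets, these were also the references with the fewest genes called, at 4069, 88 and 161. The WT and cKO libraries are those of the comparisons that chose the members.

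Against the WT sets 3 of 4 tested members, Ly6a, Ly6c2 and Ly6e, were called as higher in each double knockout, where 40.3% of all genes were called in H3.3cKO:StingKO, 42.6% in H3.3cKO:MavsKO and 31.5% in H3.3cKO:Irf7KO. For Ly6a the log2 fold changes were 4.76 ± 0.245, 4.46 ± 0.244 and 3.67 ± 0.243, given as a description. The double knockouts carry every cKO allele, and the WT libraries are those of the comparisons that chose the members. The calls against the WT sets therefore repeat that choice and are not a separate test of it. Against the cKO sets Ly6a did not pass the test in H3.3cKO:StingKO (0.31 ± 0.255, edgeR quasi-likelihood, adjusted p = 0.364) or H3.3cKO:MavsKO (0.02 ± 0.260, adjusted p = 0.976). In H3.3cKO:Irf7KO all 3 libraries lay below all 9 cKO libraries, at 58.4% of their mean, yet the difference did not pass either (-0.77 ± 0.273, adjusted p = 0.0777). It passed when only the groups compared were fitted (-0.74, adjusted p = 0.0114) and against set 2 alone (-0.91, adjusted p = 0.049), and over all the settings tried other than leaving out a library the value ran from -0.91 to -0.55, the last with the highest adjusted p, 0.591, against set 3 alone. The set 3 libraries list 54146 genes, as do those of H3.3cKO:Irf7KO, and the other libraries of this experiment 55536. A p that misses the threshold does not show that these levels were equal.

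Ly6c2, the monocyte antigen, was lower in H3.3cKO:Irf7KO than in the cKO sets. It was at 1.97 to 4.98 CPM in the WT sets and at 45.2 to 104 CPM in the cKO sets. H3.3cKO:StingKO was at 54.2, 55.7 and 55.7 CPM and H3.3cKO:MavsKO at 50, 54.5 and 60 CPM, within the cKO range, and neither passed against the cKO sets (-0.45 ± 0.262, edgeR adjusted p = 0.19, and -0.46 ± 0.261, adjusted p = 0.324). Both passed when only the groups compared were fitted (-0.47, edgeR adjusted p = 0.00618, and -0.48, adjusted p = 0.0311) and without the filter on low counts (-0.46, adjusted p = 5.15e-06, and -0.47, adjusted p = 7.93e-06). Over all the settings tried other than leaving out a library, the values ran from -0.75 to -0.02 in H3.3cKO:StingKO and from -0.76 to -0.03 in H3.3cKO:MavsKO. The cKO sets themselves differed, with Ly6c2 means of 92.8, 56.1 and 82.6 CPM in sets 1, 2 and 3. The double knockout means were 55.2 and 54.8 CPM. H3.3cKO:Irf7KO was at 7.03, 25.5 and 33.9 CPM, below every cKO library and above every WT library. Its log2 fold change against the cKO sets was -1.77 ± 0.288 (edgeR adjusted p = 0.000279), a rank of 75 from the lowest among 18083 genes, and -1.35 (adjusted p = 0.00039) without replicate 1, its lowest library. This was the only call among 4 tested members against the cKO sets in H3.3cKO:Irf7KO, where 9.85% of all genes were called. Against the WT sets Ly6c2 was still higher there, by 2.59 ± 0.264, again as a description.

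Ly6e was at 352 to 689 CPM in the WT sets and 825 to 1360 CPM in the cKO sets. In H3.3cKO:StingKO it was at 1420, 1570 and 1740 CPM, above all cKO libraries (log2 fold change 0.56 ± 0.134, edgeR adjusted p = 0.00205), the 1 of 4 members called there, where 36.1% of all genes were. Against set 1 alone, the set listed before this double knockout and the one with the highest Ly6e, it did not pass (0.32, adjusted p = 0.177). In H3.3cKO:MavsKO it was at 1010, 1030 and 889 CPM and in H3.3cKO:Irf7KO at 964, 947 and 974 CPM, inside the cKO range (-0.13 ± 0.139 and -0.15 ± 0.14). In H3.3cKO:MavsKO edgeR called 0 of 4 members against the cKO sets, where 8.79% of all genes were called, with 1 at an unadjusted p under 0.05. DESeq2 called 0 of 4 members and 10.6% of all genes. Ly6i was at 0.0243 to 0.563 CPM in the WT sets and 0.133 to 1.17 CPM in the cKO sets, with 3 to 22 reads in double knockout libraries. It was not called against the cKO sets in any double knockout.

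**Figure D5:**
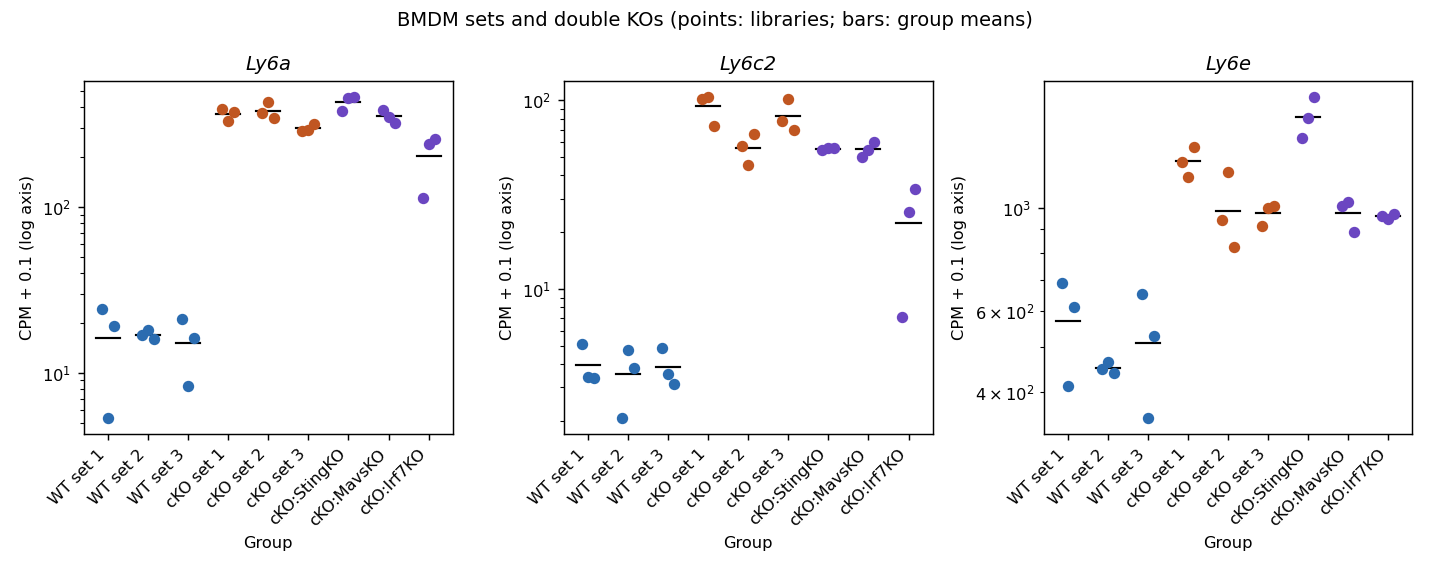
CPM + 0.1 on a log axis for Ly6a, Ly6c2 and Ly6e in the 3 sets of WT (blue) and cKO (orange) BMDMs and in the double knockouts (purple), with 1 point for each library and a bar at the group mean. The H3.3cKO:Irf7KO libraries lie between the WT and cKO libraries for Ly6c2, with a mean of 22.2 CPM against 3.68 and 77.2, and H3.3cKO:StingKO lies above the cKO for Ly6e.

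Other lists moved with these groups. Monocyte markers summed to 141 to 230 CPM in H3.3cKO:Irf7KO and to 311 to 504 CPM in the cKO sets, with 6 of 8 called lower against the cKO sets (median -1.03 against 0.00 for all genes) and 7 of 8 less reduced than Ly6c2. Progenitor markers summed to 40.1 to 70.2 CPM and to 77.8 to 189 CPM, with 6 of 8 called lower (median -1.09), and all 8 were less reduced than Ly6c2. In H3.3cKO:MavsKO, where Ly6c2 was not called, 7 of 8 progenitor markers were also called lower (median -1.21). The H3.3 genes also stood apart in H3.3cKO:Irf7KO, with H3f3b at 121 ± 42.3 CPM (SD, n = 3) against means of 194 to 203 CPM in the cKO sets and H3f3a at 4.81 ± 0.886 CPM (SD, n = 3) against 8.19 to 10.5 CPM. The part of these in the lower Ly6c2 was not tested. Of the interferon list, which includes Irf7 itself, 6 genes were called higher and 2 lower in H3.3cKO:Irf7KO (median 0.24), and all 40 had a higher value than Ly6c2 and 38 a higher one than Ly6a. In H3.3cKO:StingKO 26 of the 40 were called higher (median 0.54 against 0.02 for all genes), and 17 rose more than Ly6e. Of the other cluster genes Ly6d and Lynx1 were tested, and Lynx1 was called higher in H3.3cKO:StingKO (0.65 ± 0.248, edgeR adjusted p = 0.0419).

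Over the 79 placed libraries, with each gene centred on its mean in each experiment, the 5 genes out of 11170 with the pattern most like Ly6a were Ifi44 (Pearson r = 0.933), Enpp4 (0.932), Ifi209 (0.931), Ifi213 (0.922) and Gm1966 (0.922). Those most like Ly6e were Usp18 (0.952), Zbp1 (0.950), Ddx60 (0.943), Ddx58 (0.943) and Phf11a (0.942). Ly6a and Ly6e had r = 0.869 with each other, and the median r over 38 interferon-stimulated genes was 0.813 for Ly6a and 0.898 for Ly6e. These are descriptions over libraries that share genotype, treatment and experiment. Ly6c2 was not tested in the day 8 libraries and has no such list.

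Promoter sequence was at hand in RefSeq for 2 of the 5 members, Ly6c1 and Ly6c2, as 4 windows from 250 bases before to 50 bases after a transcript start (GRCm38). None held the letters TTTCNNTTTC of the interferon-stimulated response element core or TTCNNNGAA of the gamma-activated site on either strand, 2 motifs whose letters can overlap. Of 32851 windows 3.44% held the first and 8.3% the second. This says only that these letters are not in these windows.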

How the data were processed

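RNA-seq libraries of BMDMs, their progenitor cultures and peritoneal macrophages were analysed from the raw read counts per gene that the authors deposited, made with cutadapt and STAR on mm10 (versions not given in the sources used here). The unstranded count column was used. Gene symbols, lengths and positions came from GENCODE vM21 (GRCm38). Groups followed the labels. Each of the 5 experiments was fitted alone with edgeR 4.0.16 (R 4.3.3, limma 3.58.1), with TMM scaling, a filter on low counts (filterByExpr, minimum count 10, total 15), 1 term per group, the quasi-likelihood test and Benjamini-Hochberg adjustment over all genes tested, and genes were called at an adjusted p under 0.05. Genes tested numbered 15955 in the time course, 13075 on day 8, 12361 in peritoneal cells, 17191 in the antibody experiment and 18083 in the sets. SE was the log2 fold change over the root of F. Fits were tested on simulated counts. DESeq2 1.42.0 and other settings were alternatives.

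The 5 members were named in every comparison, with other Ly6 cluster genes that passed the filter, the targeted genes, and the 5 genes most like Ly6a and Ly6e by Pearson r of log2 CPM. Members and lists were chosen with earlier results of these data known. A pair of cKO day 8 libraries whose labels disagree on IFNγ was left out. Between cKO and WT, deviations of libraries with the same replicate number correlated above 0.1 in each of the 3 peritoneal pairs (0.144 to 0.194). This did not hold for every pair of any other experiment. Libraries of different numbers were not compared as a reference, so a pairing is not established. Pairing across days or treatments within a genotype is not shown, and the main fits took libraries as unpaired. Comparisons within an experiment share control libraries. No pair of replicates agreed within sampling noise (lowest chi-square per degree of freedom 3.48). Sequence work used Python 3.11.15 and Biopython 1.88.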

Additional observations from a re-analysis of the deposited data

Results flagged for a closer look

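The 2 cKO day 8 replicate 3 libraries whose labels conflict entered no comparison. In the library titled as given IFNγ but named without it, Ly6a was at 123 CPM, and in the library titled as untreated but named with IFNγ it was at 1240 CPM. Both were flagged because their data had not been analysed. By library name, each lies within the range of its cKO group for Ly6a, 103 to 149 CPM untreated and 605 to 1300 CPM after IFNγ. By title, each lies outside it. Ly6e stood at 577 and 1520 CPM in the same libraries, and Ly6i at 0.0807 and 4.13 CPM.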

How the results depend on the processing

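Of 1740 alternative values for 118 results, 1603 kept their direction and call or stayed within the spread. For Ly6a, DESeq2 called day 7 against day 5 in WT (2.03, adjusted p = 0.00755) and the difference of the IFNγ response (-2.18, adjusted p = 0.01). Without the filter on low counts edgeR called the same 2 (2.04 and -2.32) and the double knockouts against cKO for H3.3cKO:StingKO (0.30) and H3.3cKO:Irf7KO (-0.75). With only the groups compared, these last 2 were 0.30 and -0.74, both called, and against set 2 alone H3.3cKO:Irf7KO was -0.91. H3.3cKO:MavsKO turned to -0.06 against set 1 and -0.12 against set 2. With the conflicting libraries placed by title, Ly6a was at 4.59 (cKO against WT, untreated), -0.11 (cKO against WT, IFNγ, reversed), 5.15 (IFNγ in WT) and 0.45 (IFNγ in cKO). Among the other members the sign turned for Ly6i on the strand column (-0.97 for cKO against WT untreated and 0.91 for the difference of the IFNγ response) and on single reference sets (H3.3cKO:MavsKO against WT -0.12 and -0.13, H3.3cKO:StingKO against cKO 0.51, H3.3cKO:Irf7KO against cKO 0.22). It also turned for Ly6e with the IFNAR1 antibody in WT (0.01 by DESeq2 and RLE, 0.02 without the filter and on the strand column). The call of Ly6e for IFNγ in cKO was lost with only the groups compared (1.60, edgeR adjusted p = 0.0506), and that of Ly6c2 for the control antibody in WT on the strand column (3.16, adjusted p = 0.0759). The cause of these changes was not tested.

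Leaving out 1 library at a time, Ly6a ranged over -0.08 to 0.58 and -0.65 to 0.50 for day 5 against day 3 in WT and cKO, 1.19 to 2.38 and -0.30 to 0.85 for day 7 against day 5, 4.97 to 6.13 and 3.44 to 4.64 for cKO against WT on days 5 and 7, -0.30 to 0.86 after IFNγ, 4.45 to 6.44 without antibody and 1.12 to 3.97 with the IFNAR1 antibody. It ranged over -2.93 to -1.75 for the difference of the IFNγ response, -4.25 to -3.64 and -4.12 to -1.27 for the IFNAR1 antibody in cKO and WT, -2.69 to 0.16 for their difference and -0.05 to 0.08 for H3.3cKO:MavsKO against cKO. Signs also turned for Ly6e, over -0.36 to 0.30 and -0.05 to 0.61 between days in cKO, -0.43 to 0.06 for the difference of the IFNγ response and -0.11 to 0.13 for the IFNAR1 antibody in WT. For Ly6i they turned over -0.54 to 0.72 and -0.04 to 1.68 for day 7 against day 5 in cKO and WT, -0.10 to 1.48 and -1.36 to 0.03 for cKO against WT without and with IFNγ, and -0.38 to 0.98 for H3.3cKO:MavsKO against WT.

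Outside the peritoneal libraries, the correlations between cKO and WT by replicate number were not all over 0.1. They ran from -0.417 to 0.609 in the antibody experiment, -0.0783 to 0.0848 on day 8, -0.0911 to 0.269 in the sets and -0.0232 to 0.467 in the time course. These correlations cover cKO against WT only. Whether replicate numbers pair libraries of 1 genotype across days or treatments is not shown, and the main tests within a genotype took them as unpaired. With the replicate block Ly6e (1.56, adjusted p = 0.0129) and Ly6c2 (-2.48, adjusted p = 0.022) were called for day 7 against day 5 in WT, Ly6c2 for day 5 against day 3 in cKO (-1.65, adjusted p = 0.0299) and Ly6c1 for day 5 against day 3 in WT (-4.59, adjusted p = 0.0468), and no other call of a member changed. The block took genes called from 38 to 258 for day 7 against day 5 in WT, 421 to 643 and 573 to 870 for day 5 against day 3 in WT and cKO, 9 to 33 for day 7 against day 5 in cKO and 251 to 574 for the control antibody in cKO. DESeq2 called 621 genes for day 7 against day 5 in WT and 98 in cKO, 956 and 1094 for day 5 against day 3, 2470 (edgeR 1530) and 667 for the control antibody in WT and cKO, and 3086 (edgeR 1700) and 1266 (edgeR 692) for the IFNAR1 antibody. RLE scaling called 25 for day 7 against day 5 in WT. Without the filter the counts were 728 and 908 for day 5 against day 3, 592 and 97 for day 7 against day 5, 561 for the control antibody in cKO, and 231 and 10 for the differences of the IFNγ and IFNAR1 effects, the last at 2 with a mean of at least 1 CPM. With only the groups compared they were 698 and 1191 for day 5 against day 3, 13 and 0 for day 7 against day 5, 2690 and 1693 for the control antibody, 0 and 207 for the IFNAR1 antibody, 1097 (4399 in the joint fit) for IFNγ in cKO and 2596 (1589 in the joint fit) for H3.3cKO:MavsKO against cKO. By title IFNγ called 2 genes in WT (5240 without the conflicting libraries) and 0 in cKO, and by library name the difference of the response called 19. Single reference sets called 4069 (6528 against the mean) for H3.3cKO:StingKO against set 1, 88 and 3268 for H3.3cKO:MavsKO against cKO sets 2 and 3, 4053 (7701 against the mean) against WT set 2, and 3545 and 161 (1782 against the mean) for H3.3cKO:Irf7KO against cKO sets 2 and 3.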
